A study of Papio anubis with 3 samples.

Results

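The regions described here are the autosomal H3K27me3 peaks of baboon subventricular zone cells that overlap no listed H4K20me3 peak. They were chosen by position alone: a member is a peak of the H3K27me3 list on a numbered chromosome that shares no base with any peak of the H4K20me3 list. Of 616 autosomal H3K27me3 peaks, 406 met this rule (65.9%), out of 709 H3K27me3 peaks in all. The absence of overlap is the rule itself and no finding. The H4K20me3 list holds 10000 narrow peaks up to a false discovery rate of 0.0482, and the H3K27me3 list broad peaks up to 0.0963. A member may thus hold H4K20me3 that was not listed, and "without H4K20me3" means without a listed peak. Distances to H4K20me3 depend on the same limits. The tissue was the subventricular zone, the stem cell layer beside the lateral ventricles, of an adult olive baboon (Papio anubis) brain, and the labels give neither sex nor age in years. Dissociated cells were captured on beads carrying antibodies to a cell type marker (the protocol lists Nestin, GFAP and Vimentin, and for neuroblasts Doublecortin and PSA-NCAM), so stem cells, other glia with these markers and neuroblasts could all be held, and the labels do not say which antibody was used for these libraries. Chromatin was fixed in 1.1% formaldehyde, sheared to 200 to 500 bp and precipitated with an antibody to H3K27me3 or to H4K20me3. With 1 library per mark, the values carry no error between replicates and no test was made. Intervals in brackets are 95% intervals for counting error alone, and they treat peaks as independent, which neighbours are not. Marker genes of the captured cells were not checked, since no annotation of the genome build of the lists (papAnu2) was used here.

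H3K27me3, trimethylation of lysine 27 on histone H3, is written by Polycomb repressive complex 2 through its subunits EZH1 and EZH2. In neural stem cells Polycomb is known for holding regulators of other lineages and other body regions silent, and its best-known domains lie over the HOX gene clusters, where the mark runs over neighbouring genes rather than over a single start site. H4K20me3 is written by the SUV420H enzymes and is known from constitutive heterochromatin such as pericentromeric repeats. A peak of H3K27me3 with other peaks close by and no H4K20me3 among them is therefore a candidate Polycomb domain by its layout, but which genes lie under the peaks was not determined here.

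The 406 members covered 265 kb and were small and weakly enriched. Their width had a median of 536 bp (481 to 590) and ran from 198 to 3234 bp. The fold over control, a value the peak caller gives for each peak, had a median of 2.86 (2.84 to 2.88) and ran from 1.54 to 3.61. The caller listed peaks up to a false discovery rate q of 0.0963, and 276 members (68.0%) had a q under 0.05 and 81 a q under 0.01. By comparison, the 210 autosomal H3K27me3 peaks with H4K20me3 had a median fold of 1.74 (1.70 to 1.80) and a median width of 828 bp (711 to 966), and 166 of them had a q under 0.01. The members thus had the higher folds and the weaker q values of these sets.

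That order of folds went with the level of control reads at each peak. The control pileup, the level of control reads the caller set against a peak, was solved from each peak's fold and p, and it is called ordinary here up to 10.4, which is 2 times the lowest value in the list, and deep above that. Control was ordinary at 299 of the 406 members (73.6%, 69.1 to 77.9), against 49.2% of all autosomal H3K27me3 peaks and 4 of the 210 with H4K20me3. The 299 members at ordinary control had a median fold of 2.92 (2.89 to 2.94) and the 107 at deep control 2.05 (1.96 to 2.15). Folds of 3 or more occurred in 88 of the 299 and in 0 of the 107. Fold and control are not separate measures, because a low fold is listed only where control reads are many: the lowest fold in the list was 2.42 at ordinary and 1.37 at deep control. What the depth of control contributes to the lower folds was not tested.

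**Figure D1:**
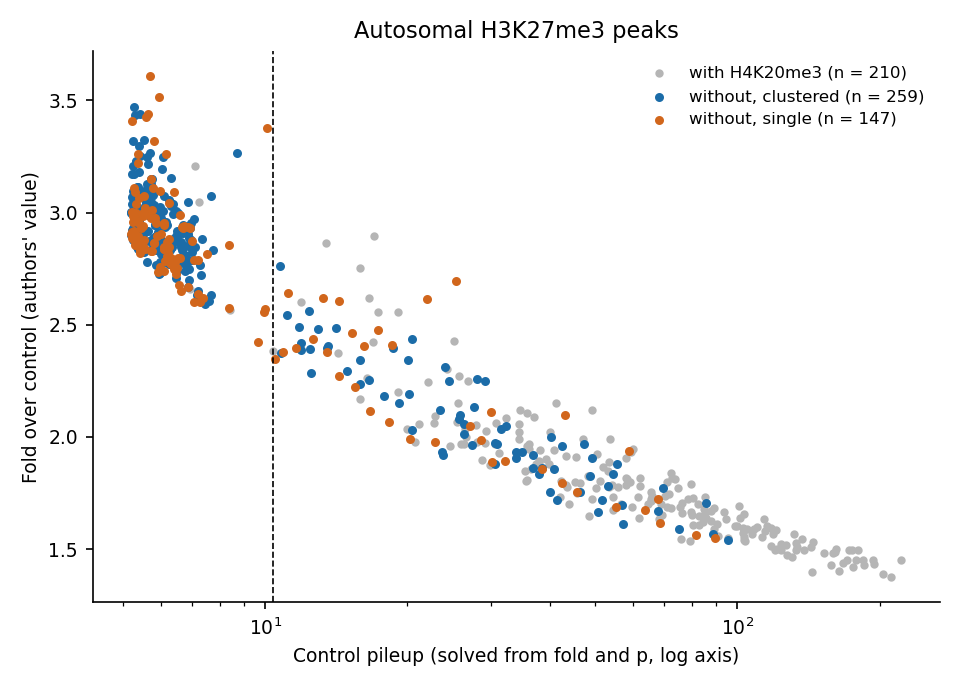
Fold over control (the authors' value, vertical axis) against the solved control pileup (horizontal axis, log scale) for the 616 autosomal H3K27me3 peaks, 1 point per peak; the dashed line marks the limit of 10.4. The members, in blue (clustered) and orange (single), lie mostly left of the line, and 206 of the 210 grey peaks with H4K20me3 lie right of it.

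Deep and ordinary members also lay at different distances from H4K20me3. At ordinary control the nearest H4K20me3 peak was 814 kb away in the median (680 to 1058), and 6 of 299 members (2.01%, 0.740 to 4.32) had one within 10 kb. At deep control the median distance was 5.997 kb (4.54 to 12.3), and 60 of 107 members (56.1%, 46.2 to 65.7) had one within 10 kb. Deep members in clusters were the closest, with 48 of 71 within 10 kb (67.6%, 55.5 to 78.2), and deep single members less so, with 12 of 36 (33.3%, 18.6 to 51.0). The intervals of the ordinary members overlapped between single (median 902 kb, 636 to 1363) and clustered peaks (810 kb, 635 to 1058). A total of 135 ordinary members (45.2%) had no H4K20me3 peak within 1 Mb on either side. The members nearest to the limit of the rule were all deep in control: the 5 closest to H4K20me3 lay 90, 106, 144, 156 and 477 bp from it, with folds of 1.76 to 2.06. Just outside the rule, the 5 overlaps of fewest bases shared 44, 79, 154, 160 and 180 bp, with folds of 1.48 to 2.57 and deep control at 4 of the 5.

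**Figure D2:**
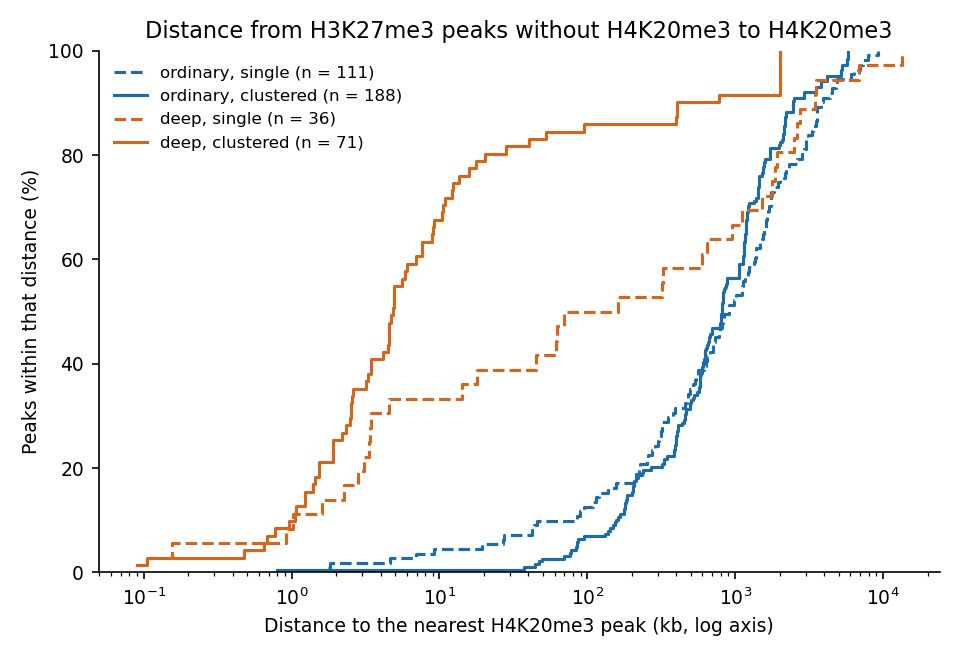
Share of members (vertical axis, percent) whose nearest H4K20me3 peak lies within a given distance (horizontal axis, kb, log scale), for ordinary and deep control and for single and clustered members. At 10 kb the line of deep clustered members stands at 67.6% and those of ordinary members stand at 4.50% (single) and 0.532% (clustered).

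The members fell into 216 units when neighbours with at most 50 kb between them were joined: 147 single peaks and 69 clusters holding 259 peaks. The share in clusters was 63.8% (58.9 to 68.5), near the 64.6% of all autosomal H3K27me3 peaks, so clustering as such did not set the members apart from other H3K27me3 peaks of the autosomes. Joined in the same way, the 210 peaks with H4K20me3 had 57.6% in clusters (50.6 to 64.4). The 79 H3K27me3 peaks without H4K20me3 on chromosome X differed: 8 of them (10.1%, 4.47 to 19.0) were in clusters, against 188 of the 299 ordinary autosomal members (62.9%, 57.1 to 68.4), and control was ordinary at 71 of the 79. Most clusters were small, with 34 pairs, 15 triplets, 3 of 4 peaks, 13 of 5 to 9 and 4 of 10 or more. Neighbours within a cluster lay 4.80 kb apart in the median (quartiles 2.20 to 9.65), and 97 of the 190 gaps measured at most 5 kb. The smallest was 815 bp.

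Clusters were almost always of 1 kind of control. All members were ordinary in 53 of the 69 clusters and all were deep in 14, with 2 mixed. None of the 53 ordinary clusters had an H4K20me3 peak between its first and last base, and none had one within 10 kb. A count of 0, taken here to allow 3 counts, allows a share of up to 5.66%. Of the 16 clusters with a deep member, 6 enclosed H4K20me3 peaks and 12 had one within 10 kb. The rule alone keeps H4K20me3 off the peaks, not out of the gaps between them. It also leaves out every H3K27me3 peak that overlaps H4K20me3, so the gaps are not free of the selection. Clusters were also short, with a median length of 12.4 kb over all 69. How often other stretches of such length hold H4K20me3 was not measured.

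Clustered members were wider than single ones, while their median folds were close. At ordinary control the median width was 650 bp (562 to 703) in clusters and 498 bp (354 to 560) for single peaks. Peaks of 1 kb or more made up 38 of 188 clustered members (20.2%, 14.7 to 26.7) and 5 of 111 single ones (4.50%, 1.48 to 10.2). Without the 3 dense clusters described next, the clustered share was 28 of 146 (19.2%, 13.1 to 26.5) and the median width 597 bp (510 to 703), which overlaps the interval of single peaks. The difference therefore lay in the wide tail more than in the middle of the distribution. Median folds at ordinary control were 2.93 (2.90 to 2.97) in clusters and 2.89 (2.86 to 2.93) for single peaks. The median -log10 q was 1.45 (1.38 to 1.49) in clusters and 1.29 (1.24 to 1.39) for single peaks, intervals that also overlap. High folds differed more than the medians: folds of 3 or more made up 34.6% of ordinary clustered and 20.7% of ordinary single members. Between width and fold, Spearman's rho was 0.0022 over the 188 ordinary clustered members and -0.196 over the 111 ordinary single ones. At deep control it was -0.121 for clustered and -0.506 for single members. These values are a description only, since the peaks share a library and often a cluster. On chromosome X, 1 of 71 ordinary peaks without H4K20me3 reached 1 kb (1.41%, 0.0357 to 7.60), and this interval holds the share found for single autosomal members.

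**Figure D3:**
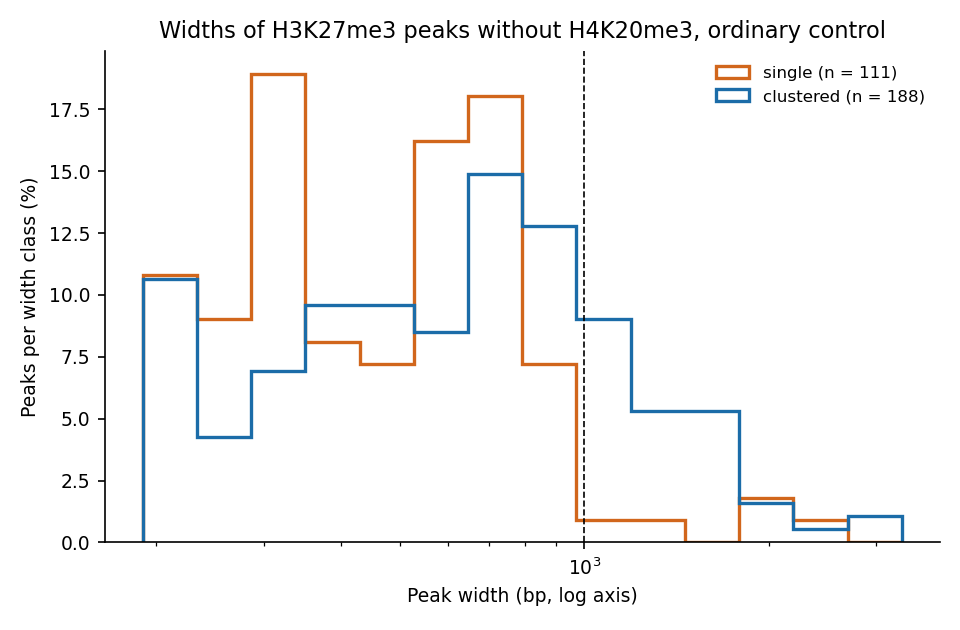
Widths (horizontal axis, bp, log scale) of members at ordinary control, as the percent of peaks per width class (vertical axis), for 111 single and 188 clustered members; the dashed line marks 1000 bp. Right of that line lie 4.50% of the single and 20.2% of the clustered members.

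By number of members, the largest ordinary clusters are 3 stretches of about 100 kb on chromosomes 12, 3 and 11, which together held 42 members. They are called dense here for that number, not for their spacing. Per 10 kb they held 1.74, 1.22 and 1.05 members, within the 0.518 to 3.73 of the 6 ordinary clusters of 5 to 9 members. Control was ordinary at all 42 (pileups of 5.21 to 7.75). Their median fold was 2.98 (2.92 to 3.01), above the 2.91 (2.88 to 2.96) of the other ordinary clustered members but with overlapping intervals, and 17 of the 42 (40.5%) had a fold of 3 or more, against 32.9% of those others. None had an H4K20me3 peak within 100 kb, where the exact interval reaches up to 8.41%. Of the other ordinary clustered members, 13 of 146 had one (8.90%, 4.83 to 14.7), so the 3 clusters did not stand apart in this. The limit also counts the 42 peaks as independent, though they lie in 3 clusters.

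On chromosome 12, 17 members lay between 38000321 and 38097853, a stretch of 97.5 kb of which they covered 15.4%. From its first to its last peak the folds were 2.85, 2.67, 2.99, 2.98, 2.94, 3.13, 2.63, 3.13, 3.04, 3.01, 3.00, 2.87, 3.03, 2.79, 3.05, 2.99 and 2.98. The values ran from 2.63 to 3.13. The folds of 2.85 and 2.67 that open the stretch were below its median of 2.99, and the folds of 2.99 and 2.98 that close it were near that median. Widths were less even. All 5 peaks of 1 kb or more lay in the middle 28.2 kb, from 38033153 to 38061348, and they made up 57.7% of the bases covered. The widest of them (38042655 to 38045494, 2840 bp, fold 3.04) was the third widest of all 406 members. This cluster was the most compact of the 3, with no gap over 12.3 kb, and the nearest H4K20me3 peak was 568 kb away.

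On chromosome 3, 13 members lay between 83728576 and 83834732 and covered 9.85% of 106 kb. The folds from first to last peak were 2.84, 2.96, 3.01, 3.01, 3.06, 2.87, 2.91, 3.19, 2.88, 2.89, 2.94, 2.70 and 2.98. Peaks were sparser at the start of the stretch, where the first 3 stood apart by an 18.3 kb gap from the other 10. The strongest peak (83804724 to 83805535, 812 bp, fold 3.19) lay in the denser part, as did both peaks over 1 kb (1463 and 1003 bp). The nearest H4K20me3 peak was 132 kb away, the closest of the 3 clusters. A pair of members further along the chromosome held the widest of all 406 members (85106069 to 85109302, 3234 bp, fold 3.15).

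On chromosome 11, 12 members lay between 49694997 and 49809481 and covered 7.55% of 114 kb, the thinnest cover of the 3. The folds from first to last peak were 2.91, 2.94, 3.11, 3.05, 2.88, 2.92, 3.27, 3.05, 3.44, 3.01, 2.85 and 2.96. A gap of 36.8 kb without a peak split the stretch into 3 members before it and 9 after it. The peak of fold 3.44 (49775875 to 49776072) was among the 5 strongest of all members, yet at 198 bp it had the smallest width in the list. The 3 peaks over 1 kb (1255, 1614 and 1077 bp) were spread over 99.6 kb, against 28.2 kb for the 5 of chromosome 12. No H4K20me3 peak lay within 1 Mb of this cluster.

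**Figure D4:**
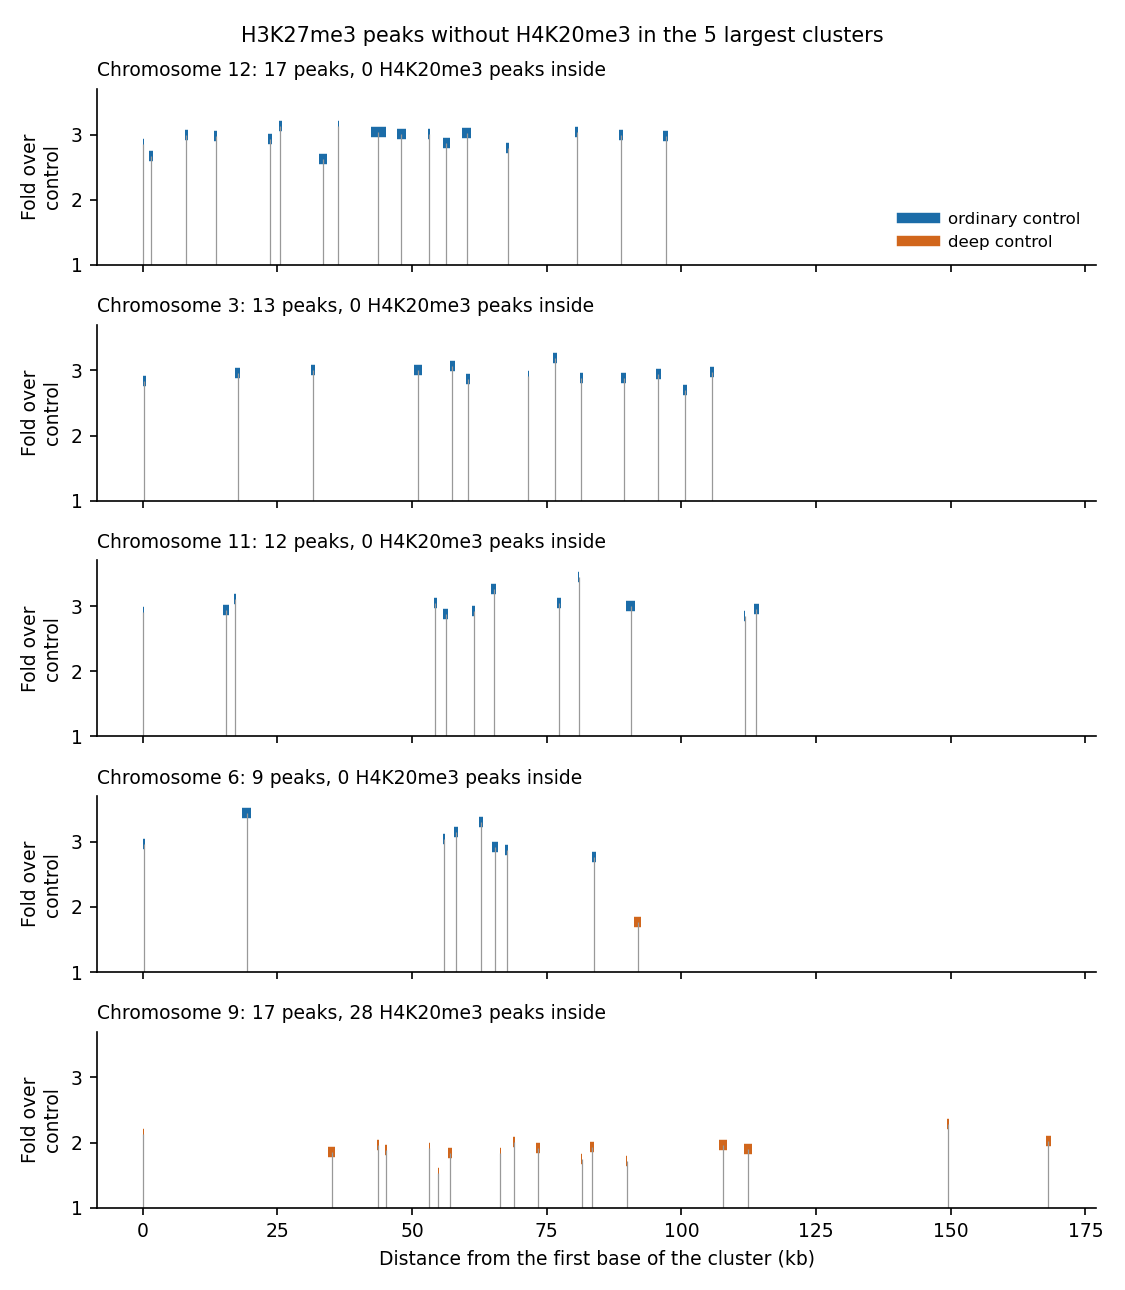
Fold over control (vertical axis) of each member along the 5 clusters with the most members. The horizontal axis is the distance from the first base of the cluster in kb. Bars are drawn to the width of the peak, blue for ordinary and orange for deep control. In the clusters of chromosomes 12, 3 and 11 all peaks are blue at folds of 2.63 to 3.44, and in that of chromosome 9 all 17 are orange at folds of 1.54 to 2.29.

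The other cluster with more than 10 members had a different make-up. On chromosome 9, 17 members lay between 400712 and 569245, with folds of 1.54 to 2.29 (median 1.92). The highest of them was below the lowest of the 3 dense clusters. That order follows from the split by control, since the 3 dense clusters are wholly ordinary and no fold under 2.42 is listed at ordinary control. All 17 were deep in control (median 36.9), the closest lay 90 bp from H4K20me3, and the stretch enclosed 28 H4K20me3 peaks and 11 H3K27me3 peaks that overlapped them. A second cluster nearby (667852 to 723034) held 5 members, with medians of 2.39 for the fold and 18.6 for control. Of the 406 members, 44 lay within 1 Mb of the first base of a chromosome or of its last listed peak end. Of these 44, 36 were deep in control and 22 were on chromosome 9. Because the far end is the last listed peak of either mark, a member that is itself the last counts by construction. The same share over all autosomal H3K27me3 peaks was not measured, so the count does not show nearness to chromosome ends.

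Among the 13 clusters of 5 to 9 members, 6 were wholly ordinary. A group of 6 on chromosome 2 (138629053 to 138682315) had a median fold of 2.86 and wide peaks (median 946 bp). On chromosome 4, 6 members between 49977301 and 50004534 had folds in the narrow range of 2.74 to 2.88. The 5 members on chromosome 4 between 10275295 and 10306232 had a median fold of 2.98 and included a peak of 2181 bp. The 5 on chromosome 5 (44495683 to 44509101) were the tightest of the ordinary clusters of this size, with 24.2% of 13.4 kb covered and a median fold of 3.01. The 5 on chromosome 17 (56052449 to 56093721) had a median fold of 2.78, the lowest among the ordinary clusters of 5 or more, and lay 2160 kb from H4K20me3. The sixth, on chromosome 4 (27215258 to 27331147), was the loosest, with 2.39% of 116 kb covered at a median fold of 2.98. Over all 9 ordinary clusters of 5 or more, the median fold ran from 2.78 to 3.01 and the nearest H4K20me3 peak was 132 to 2160 kb away.

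A cluster of 9 on chromosome 6 (42434968 to 42527499) was nearly of this kind. Its first 8 peaks were ordinary, with folds of 2.77 to 3.44, and its last peak alone was deep (fold 1.77, control 69.4), which makes it 1 of the 2 mixed clusters. The other mixed cluster, of 6 on chromosome 8 (6703445 to 6749746), had the opposite balance, with 1 ordinary peak at a fold of 3.26 and 5 deep ones, and it enclosed 4 H4K20me3 peaks. The remaining 5 clusters of this size were wholly deep, and 1 of them was the second cluster of chromosome 9 given above. They also included 5 members at the start of chromosome 8 (17584 to 50172, median fold 2.25), 5 on chromosome 3 (37483681 to 37511377, 2.34) and 6 on chromosome 6 (106265575 to 106305277, 2.11). In each of these 3 clusters the member nearest to H4K20me3 lay within 1 kb of it (0.651, 0.678 and 0.959 kb). The last, of 6 on chromosome 4 (26657185 to 26672874), did not follow the others. It lay 2000 kb from H4K20me3 and had folds of 2.37 to 2.56. Its control pileups, in a narrow range of 10.8 to 14.1, lay just above the limit of 10.4. With a limit of 3 times the lowest, all 6 of its peaks would be ordinary. The peaks of this cluster covered 51.8% of 15.7 kb, the highest share of any cluster of 5 or more.

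That cluster opens a long row of members. Between 26657185 and 27845487 on chromosome 4, 19 members in 4 units were listed over 1188 kb, 13 of them ordinary, and no H4K20me3 peak fell in the stretch. The second unit (26948349 to 26966944) held 4 members with a median fold of 3.05, among them the third strongest of all members (26956679 to 26956903, 225 bp, fold 3.47). The last unit (27838592 to 27845487) held 3 members with nearly equal folds of 2.98 to 2.99. The row was noticed in the data and was not chosen by a rule. Its window, 26 to 28 Mb, was picked by hand, and spacing does not set its end. Further ordinary single members followed (28354974 to 28355189 and 28458937 to 28459362). The gap before them was about as long as that between the last unit of the row and the unit before it.

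By number, chromosome 4 held the most members, 52 (12.8%, 9.72 to 16.5) on 6.57% of the autosomal stretch that peaks spanned. Relative to its stretch chromosome 9 was highest, with 42 members (10.3%, 7.56 to 13.7) on 4.97%, or 33.6 per 100 Mb against 31.5 on chromosome 4. Among ordinary members chromosome 9 held 6.02% (3.61 to 9.35), chromosome 4 held 15.1% (11.2 to 19.6), and chromosome 12 held 8.36% (5.48 to 12.1) on 3.46%. Counted as units, so that neighbours count once, the shares were 10.2% (6.49 to 15.01) on 4, 6.94% (3.94 to 11.2) on 9 and 2.78% (1.03 to 5.95) on 12, and these 3 intervals include the share of the stretch. All 25 members on chromosome 12 were ordinary, whereas 24 of the 42 on chromosome 9 were deep. Chromosome 2 was low in members (3.69%, 2.08 to 6.02) and in units (3.24%, 1.31 to 6.56) for its 7.41%. On chromosomes 10 and 13 the 10 and 12 members were all single. Chromosomes 16, 18, 19 and 20 held none, since the H3K27me3 list has no peak there. By the exact interval a count of 0 allows each up to 0.904% of members and 1.69% of units. Why the list is empty there is not known, so these limits may not apply. The 4 chromosomes make up 9.32% of the autosomal stretch and held 3243 H4K20me3 peaks. With no H3K27me3 peak listed, no member could be found on them.

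**Figure D5:**
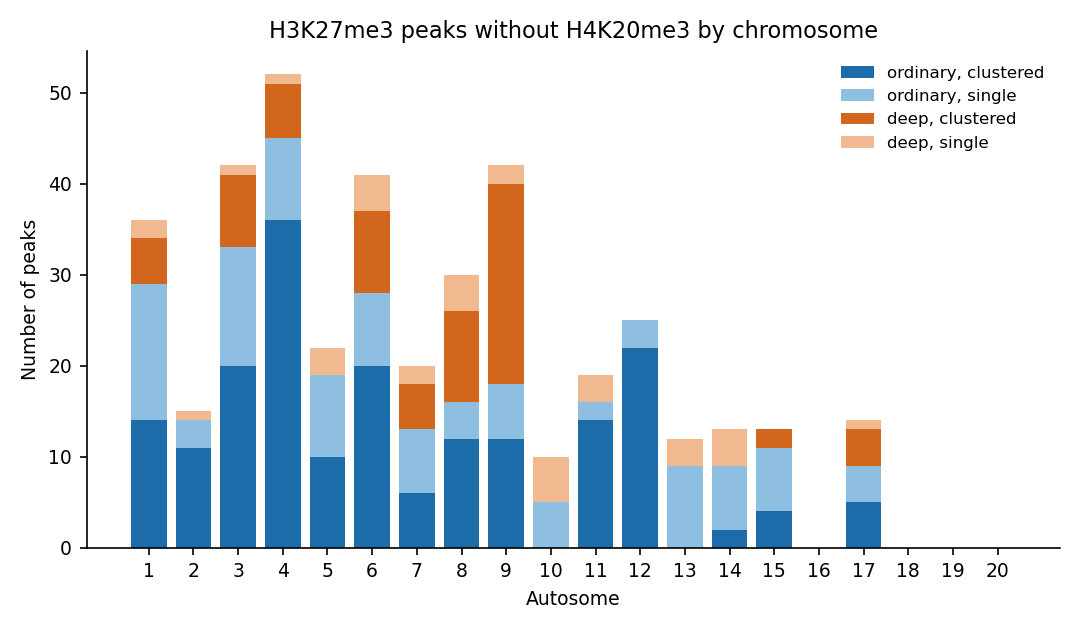
Number of members (vertical axis) on each autosome (horizontal axis), stacked by control and by single or clustered position. Chromosome 4 has the tallest bar with 52 members, chromosome 12 has 25 with no deep member, and chromosomes 16, 18, 19 and 20 have none.

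Folds of 3 or more were found at 65 of the 188 ordinary clustered members (34.6%) and 23 of the 111 ordinary single ones (20.7%). At the very top, 3 of the 5 highest folds were single peaks. The highest folds were 3.61 on chromosome 13 (127190713 to 127191046, 334 bp), 3.51 on chromosome 17 (7061302 to 7061550, 249 bp), 3.47 and 3.44 at the clustered peaks of chromosomes 4 and 11 given above, and 3.44 on chromosome 15 (74168913 to 74169122, 210 bp). The next single members in order were 3.43 on chromosome 6 (6297251 to 6297457) and 3.41 on chromosome 4 (147265765 to 147265962). The strongest of all, on chromosome 13, was also 1 of the 6 ordinary members within 10 kb of H4K20me3 (9.15 kb), while that on chromosome 17 lay 1691 kb away. The widest members were in clusters, where the 5 widest measured 2363 to 3234 bp. After those of chromosomes 3 and 12 given above, they were 2929 bp in the deep cluster that opens the row on chromosome 4 (26667906 to 26670834, fold 2.40), 2590 bp in a deep triplet on chromosome 3 (32594704 to 32597293, fold 2.0998) and 2363 bp in an ordinary pair on chromosome 9 (121446301 to 121448663, fold 3.12). Among single members the widest was on chromosome 15 (53139129 to 53141393, 2265 bp, fold 3.22). The strongest q values belonged to single members, mostly deep in control. The -log10 q was 7.32 and 5.53 on chromosome 5 (49680990 to 49681310, fold 2.69, and 161926939 to 161927293, fold 2.61), 5.14 on chromosome 6 (107835011 to 107835354, fold 2.096) and 4.99 on chromosome 1 (185978816 to 185979153, fold 1.94). The ordinary exception was 5.29 on chromosome 4 (97369333 to 97369680, fold 3.38), whose control pileup of 10.1 was the highest on that side of the limit. In the 3 dense clusters no -log10 q exceeded 2.59.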

How the data were processed

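The submitters' processing notes name Bowtie 1.1.1 and MACS2 2.1.0.20140616 for what the authors ran; parameters are not given in the sources used here. Both deposited lists name papAnu2 in their file names. The H3K27me3 list has the broad and the H4K20me3 list the narrow layout of MACS2. The authors' fold over control is a ratio per peak. The deposited p and q are -log10 values. The deposited score is 10 times the -log10 q and was not used. Total H3 and total H4 libraries served for normalization, per the labels' protocols, which state over 200 M tags; with no read totals used here, the depth of each library is unknown.

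Coordinates are counted from 1. Control pileups were solved from fold = (ChIP + 1) / (control + 1) and a Poisson upper tail. Recovered ChIP pileups were whole (within 0.02) for 5.78% of H3K27me3 peaks, whose values are means over a region, so their control pileups are approximate. Clusters join members with gaps of at most 50 kb. Shares carry exact binomial and medians order-statistic intervals. Chromosome stretches end at the largest peak end in either list. Named were clusters of 5 or more, the peaks of the 3 dense clusters, and the 5 members at each extreme of fold, width, q and distance to the rule's limit. The members, lists and limits were chosen with earlier results of these data known. Overlap, joining and solving were tested on simulated data. The RefSeq gene table at hand is of another assembly (Panubis1.0), so no gene was assigned, the planned gene lists were not counted and no sequence is shown. The total H4 sample has no peak list here and was not analysed. Python 3.11.15, numpy 2.4.6, scipy 1.17.1, pandas 2.3.3 and matplotlib 3.10.9 were used.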

Additional observations from a re-analysis of the deposited data

How the results depend on the processing

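Of 66 alternative values, 55 stayed within 1.5 times (numbers) or within the 95% interval (shares and medians), and 11 moved beyond these. A change of direction was not looked for. Of the 66, 14 were chosen after seeing the data. A -log10 q of at least 2 left 81 members. Joining within 10 kb put 53.0% of members in clusters and left 2 clusters of 10 or more; the cluster of chromosome 12 then kept 14 members in its largest piece, that of chromosome 3 kept 7 and that of chromosome 11 kept 4, and within 25 kb they kept 17, 13 and 9. Without chromosome 9, or at ordinary control only, there were 3 clusters of 10 or more. The median fold was 2.90 for single and 2.93 for clustered members at ordinary control only, 2.94 for single members with a -log10 q of at least 1.3, and 2.91 for clustered members where H4K20me3 within 10 kb counted as shared. The share of members at ordinary control was 79.8% with a limit of 3 times the lowest, 66.2% with a -log10 q of at least 1.3 and 86.2% where H4K20me3 within 10 kb counted as shared. With the limit of 3 times the lowest, 69.5% of deep members lay within 10 kb of H4K20me3. The shares of peaks of 1 kb or more stayed within their intervals under each of the 7 alternatives tried. The share of members at a gene start was not run, for want of an annotation of this build. No paired analysis was possible because each mark has 1 library. No fold under 2.42 was listed at ordinary control; what the depth limits was not tested, since read totals were not used.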

Other observations

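The 13 members of the smallest listed width, 198 bp, were all at ordinary control, and 8 of them lay in clusters, 4 of these in the dense clusters of chromosomes 11 and 12. On chromosome 12 such a peak lay in the same stretch as the one of 2840 bp. Of the 6 ordinary members within 10 kb of H4K20me3, 5 were single, on chromosomes 1, 4, 6 and 13, at distances of 1.76 to 9.15 kb and folds of 2.82 to 3.61. The sixth was the ordinary peak of the mixed cluster on chromosome 8, 0.803 kb from H4K20me3. No hypothesis was tested.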
